A study of Mus musculus with 6 samples.

Results

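Glutathione S-transferases (GSTs) join the tripeptide glutathione to reactive, fat-soluble compounds so that cells can export them. The genes described here are 10 GST genes of the mouse, chosen by name with their bulk values in this series in view: Gsta3, Gsta4, Gstm1, Gstm2, Gstm5, Gstp1, Gstt1, Gstk1, Mgst1 and Mgst3. They are 10 of the 27179 genes of the bulk count table, and all 10 were found in the bulk and the single-cell files.

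The labels give C57BL/6 mice, and the study's methods C57BL/6J. Immature cardiomyocytes (imCMs) from neonatal hearts were co-cultured with neonatal cardiac fibroblasts (imCM-NF, n = 2 bulk libraries) or adult cardiac fibroblasts (imCM-AF, n = 2 bulk libraries), with no imCMs cultured alone among the bulk libraries. Cells of co-cultures were also sequenced singly in nanowells (ICELL8), in 1 library labelled cardiomyocytes and 1 labelled fibroblasts, where transcripts carry a unique molecular identifier (UMI). Per the study's methods, co-cultured cells were marked with a dye and sorted before sequencing, fibroblasts had been passaged, and adult fibroblasts were plated at a higher ratio than neonatal fibroblasts. No label says that libraries of a group came from separate cultures, so p-values measure only the spread between these libraries, which may be technical.

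The cytosolic GSTs fall into classes named by Greek letters. The alpha class (Gsta3, Gsta4) acts on steroids and on aldehydes from lipid peroxidation, and GSTA4 is known for its activity towards 4-hydroxynonenal, a toxic aldehyde of oxidised membranes. The mu (Gstm), pi (Gstp) and theta (Gstt) classes handle other electrophiles, Gstk1 belongs to the kappa class of mitochondria and peroxisomes, and Mgst1 and Mgst3 are membrane proteins of a separate superfamily named MAPEG. Many GST genes are targets of Nrf2, the transcription factor of the oxidative stress response, which binds antioxidant response elements. In the heart, lipid aldehydes and peroxides arise from an active oxidative metabolism.

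GST genes have close relatives, which bears on how far counts of one member can be kept apart from those of another. Gstm1 (chromosome 3, 108012250 to 108017973, minus strand, GRCm38) and Gstm2 (chromosome 3, 107981702 to 107986420, minus strand) lie in one cluster with Gstm5 (chromosome 3, 107895854 to 107898685, plus strand). The coding sequences of Gstm1 and Gstm2 were 86.2% identical over 658 aligned positions, and those of Gstm1 and Gstm5 were 71.2% identical. The first 60 coding bases of Gstm1 and Gstm2 (GENCODE M21 transcripts) are shown to let this likeness be seen, with capitals in Gstm2 at the 12 bases that differ from Gstm1.
Gstm1: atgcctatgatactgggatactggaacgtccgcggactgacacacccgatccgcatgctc
Gstm2: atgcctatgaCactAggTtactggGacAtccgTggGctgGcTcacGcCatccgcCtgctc
Of the 35-base windows in the coding transcripts of each gene, the read length of the bulk libraries, 27.8% in Gstm1, 14.6% in Gstm2 and 13.6% in Gstm5 also occurred in a transcript of another gene. For Gstm1, 307 of the 396 shared windows occurred in Gstm2-ps1, so most of this share did not need Gstm2 itself. For Gstm2 the gene with the most shared windows was Gm6665, with 81 of 169. For Gstm5 the only such gene was 4933431E20Rik, which overlaps it on the opposite strand. Windows were compared singly, whereas the study's methods give paired reads, so these shares can overstate how many read pairs are ambiguous.

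The 2 alpha class members were further apart from each other, at 66.9% identity. Gsta3 lies on chromosome 1 (21240565 to 21265575, plus strand) and Gsta4 on chromosome 9 (78191966 to 78209349, plus strand). Their first 60 coding bases are shown because these genes carried the largest bulk differences among the 10, with capitals in Gsta4 at the 17 bases that differ from Gsta3.
Gsta3: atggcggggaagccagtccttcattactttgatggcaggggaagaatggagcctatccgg
Gsta4: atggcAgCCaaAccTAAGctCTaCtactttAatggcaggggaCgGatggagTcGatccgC
No 35-base window of Gsta4 or Mgst1 was shared with another gene, and 1.45% of those of Gsta3 were. Gsta3 overlaps the predicted gene Gm28836 on the opposite strand, and the use of strand in counting is not stated.

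Gstp1 (chromosome 19, 4035411 to 4037912, minus strand) was the least separable member. Its coding sequence was 98.1% identical to that of Gstp2, and 56.3% of its 35-base windows occurred in Gstp2 too. The start of both coding sequences is shown, with capitals in Gstp2 at the 6 bases that differ from Gstp1.
Gstp1: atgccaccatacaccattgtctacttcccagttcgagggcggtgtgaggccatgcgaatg
Gstp2: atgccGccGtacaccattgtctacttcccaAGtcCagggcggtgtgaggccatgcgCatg
Since reads placed at more than one site were left out of the bulk counts, values of Gstp1 can be too low. Gstp2 itself had 3 raw counts in each imCM-NF library, against 8 and 15 in imCM-AF. Gstt1 (chromosome 10, 75783813 to 75798584), Gstk1 (chromosome 6, 42245935 to 42250441), Mgst1 (chromosome 6, 138140527 to 138156755) and Mgst3 (chromosome 1, 167371966 to 167393841) shared under 1% of their windows, and no annotated gene overlapped them.

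To ask how the age of the co-cultured fibroblasts relates to GST expression in imCMs, the bulk libraries were described gene by gene, with counts-per-million after TMM scaling (CPM). Because the members were chosen with this contrast in view, their values are given with no test. The alpha class genes stood out. Gsta3, an alpha class enzyme also known for isomerase activity on steroids, was scarce in imCM-NF at 0.892 and 0.826 CPM, against 13.6 and 8.65 CPM in imCM-AF, and the groups were far apart. These values rest on 8 and 10 raw counts in imCM-NF and on 149 and 103 in imCM-AF, and the fitted log2 fold change was 3.68 ± 0.33 (SE, 2 libraries in each group). Here and below, ± is a standard error (SE) worked back from the edgeR quasi-likelihood statistic. That statistic shares spread between genes, so the SE is not the spread of these libraries alone. For the members it is given as description. Gsta4 was at 13.9 and 11.2 CPM in imCM-NF against 45.1 and 40.2 CPM in imCM-AF, with a log2 fold change of 1.78 ± 0.13. Both imCM-AF libraries thus lay above both imCM-NF libraries for each alpha class gene.

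The mu class did not move together. Gstm1, a broad detoxifying enzyme, was at 72.9 and 76.2 CPM in imCM-NF against 104.3 and 102.9 CPM in imCM-AF, with a log2 fold change of 0.47 ± 0.09 and no overlap of the groups. Its neighbour Gstm2 went the other way, with 57.1 and 57.8 CPM in imCM-NF against 49.6 and 46.5 CPM in imCM-AF and a log2 fold change of -0.26 ± 0.09. Gstm5 was at 41.7 and 46.3 CPM in imCM-NF against 37.2 and 41.3 CPM in imCM-AF, so that the nearest libraries of the groups almost touched. Gstm1 was the only mu class member that was higher in both imCM-AF libraries.

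The remaining members differed little between the groups, except Gstt1. Gstp1 was at 58.5 and 60.9 CPM in imCM-NF against 63.1 and 55.2 CPM in imCM-AF, and its log2 fold change of -0.02 ± 0.10 took the opposite sign with library totals or upper quartile scaling. Gstt1, of the theta class, was at 8.81 and 7.52 CPM in imCM-NF against 6.94 and 5.38 CPM in imCM-AF, and Gstk1 had 5.24 and 5.62 CPM against 4.93 and 7.06 CPM. The groups overlapped for Gstp1 and Gstk1, while both imCM-AF libraries of Gstt1 were lower, with a log2 fold change of -0.40 ± 0.21. Among the membrane enzymes, Mgst1, which guards membranes of the endoplasmic reticulum and mitochondria against lipid peroxides, was at 64.3 and 71.0 CPM in imCM-NF against 63.1 and 61.0 CPM in imCM-AF. Mgst3, which can act as a glutathione peroxidase, had 54.8 and 44.8 CPM against 54.1 and 53.7 CPM, with overlapping groups.

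**Figure D1:**
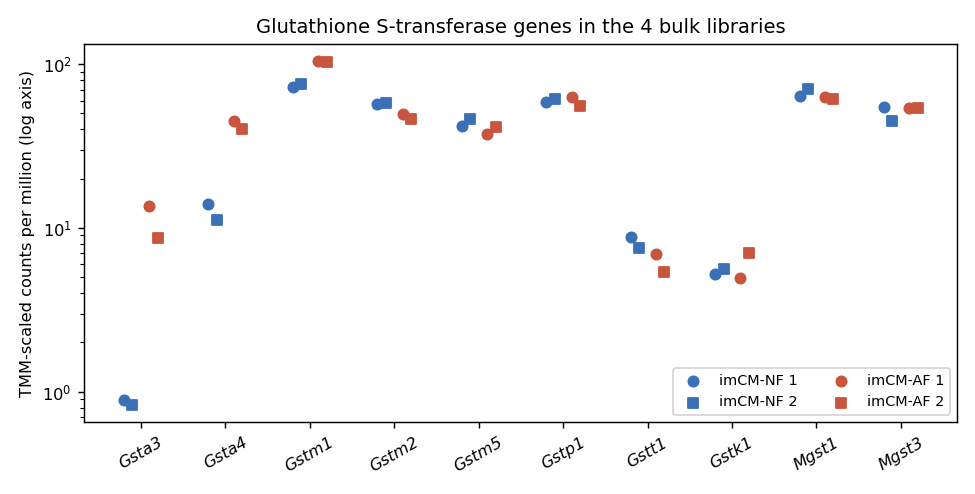
TMM-scaled counts-per-million (log axis) of the 10 GST genes in each bulk library, with imCM-NF in blue and imCM-AF in red. The imCM-AF points of Gsta3 (13.6 and 8.65 CPM) and Gsta4 (45.1 and 40.2 CPM) lie well above the imCM-NF points, those of Gstm1 slightly above and those of Gstt1 slightly below, and the other genes lie within a narrow range.

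All 10 members passed the filter on low values. Across all 14041 tested genes, 6.15% were called higher and 4.99% lower in imCM-AF (an adjusted p below 0.05 with a log2 fold change beyond 0.58 either way), and Gsta3 and Gsta4 are among the former, which is no test of these 2 genes since they were chosen on these values. Libraries did not overlap for 3 members in the higher direction (Gsta3, Gsta4 and Gstm1) and for 4 in the lower direction (Gstm2, Gstm5, Gstt1 and Mgst1), beside 32.1% and 33.8% of all tested genes. The median log2 fold change over the 10 members was 0.05, beside 0.00 over all tested genes. Summed over the 10 genes the level came to 378.2 and 382.0 CPM in imCM-NF against 442.0 and 421.8 CPM in imCM-AF. The alpha class genes took a larger share of this sum in imCM-AF, with Gsta4 at 3.68% and 2.92% in imCM-NF and 10.2% and 9.54% in imCM-AF.

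Levels of different genes were set side by side only after division by exon length (CPM per kilobase of coding-transcript exons). In the first imCM-NF library Gstp1 was highest at 65.3 CPM per kilobase, followed by Gstm1 at 52.3, Mgst3 at 49.99, Gstm2 at 47.9, Gstm5 at 39.1 and Mgst1 at 31.9. Gsta4 followed at 11.0, Gstt1 and Gstk1 were near each other at 5.76 and 5.63, and Gsta3 was lowest at 0.527 CPM per kilobase. Across the 2 imCM-NF libraries the ranges of Gstm1 (52.3 to 54.6) and Gstp1 (65.3 to 67.9) did not meet, and Gstm2 (47.9 to 48.5) lay above Gstm5 (39.1 to 43.4), whereas Mgst3 (40.8 to 49.99) overlapped both of the latter. In imCM-AF Gsta4 reached 35.6 and 31.8 CPM per kilobase, just above Mgst1 (31.3 and 30.3), while Gsta3 reached 8.04 and 5.11. Gstm1 (74.8 and 73.8) was then above Gstp1 (70.4 and 61.6). Division by length does not allow for dropped reads. Of 35-base windows, 56.3% in Gstp1 and 27.8% in Gstm1 occur in other genes, so both can be too low, by unlike amounts. The order of Gstm1 and Gstp1 is therefore not settled in either group.

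Markers of other cell types moved with the same comparison. The summed level of 14 fibroblast markers was 24428 and 27394 CPM in imCM-NF against 17633 and 14251 CPM in imCM-AF, with 7 of the 14 called lower and 1 higher, whereas 15 cardiomyocyte markers summed to 49295 and 36332 CPM against 46588 and 50975 CPM. All 12 endothelial markers had lower fitted values in imCM-AF, 5 of them called, and summed to 1532 and 1636 CPM against 1193 and 1082 CPM. Macrophage markers summed to 72.9 and 87.8 CPM against 63.7 and 71.8 CPM, markers of smooth muscle and pericytes to 2719 and 2916 CPM against 2328 and 1957 CPM, epicardial markers to 152.6 and 103.1 CPM against 120.7 and 127.4 CPM, and none of 5 red cell markers passed the filter. In bulk RNA, fewer cells of a type and less RNA per cell cannot be told apart, and the part of cell mixture in the GST values was not tested.

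Next, the genes that make, use and recycle glutathione were examined as 98 genes in 5 lists, written from general knowledge with earlier results of these data known. Of these, 84 were tested and 22 were called by edgeR's quasi-likelihood test, 16 higher and 6 lower in imCM-AF, beside 6.15% and 4.99% of all genes, and the median log2 fold change of the 84 was 0.03. Among 11 other GST and MAPEG genes tested of 21, 2 were called, both higher, beside the 6.15% of all tested genes called higher. Ptges, the prostaglandin E synthase of the MAPEG superfamily, rose to 27.3 and 21.8 CPM in imCM-AF from 12.1 and 14.2 CPM (log2 difference 0.89 ± 0.15, edgeR adjusted p 0.00035). Gsto2, an omega class GST, rose to 1.92 and 2.44 CPM in imCM-AF from 0.669 and 1.24 CPM (log2 difference 1.13 ± 0.39, edgeR adjusted p 0.0391) at a very low level. Gsta1 and Gsta2, the closest relatives of Gsta3, did not pass the filter, with 0 and 2 raw counts in imCM-NF and 6 and 8 in imCM-AF for Gsta1, and 0 and 1 against 7 and 8 for Gsta2.

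In glutathione synthesis and salvage, 4 of 14 tested genes were called higher and 1 lower, beside 6.15% and 4.99% of all tested genes. Chac1, which degrades glutathione inside the cell, rose to 41.9 and 48.6 CPM in imCM-AF from 20.5 and 15.7 CPM (log2 difference 1.34 ± 0.13, edgeR adjusted p 1.69e-06). Slc7a11, which imports cystine for glutathione synthesis, rose to 35.2 and 33.9 CPM in imCM-AF from 13.9 and 15.4 CPM (log2 difference 1.23 ± 0.12, edgeR adjusted p 1.81e-06). The surface aminopeptidase Anpep, which cuts glutathione breakdown products outside the cell and is also made by fibroblasts, fell to 17.7 and 17.4 CPM in imCM-AF from 46.1 and 44.2 CPM (log2 difference -1.36 ± 0.11, edgeR adjusted p 2.19e-07). The other 2 called genes of this list, Gclc and Gclm, encode the subunits of the enzyme that starts glutathione synthesis, and had log2 fold changes of 0.71 ± 0.11 and 0.94 ± 0.11. They lie outside the naming rule and were picked after their values were seen.

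Of 30 tested genes of glutathione and thioredoxin reduction, 2 were called higher and 3 lower, beside 6.15% and 4.99% of all tested genes. Most of the list did not pass the test. Sod3, the extracellular superoxide dismutase, rose to 47.1 and 48.3 CPM in imCM-AF from 21.7 and 22.1 CPM (log2 difference 1.12 ± 0.11, edgeR adjusted p 1.02e-06). Srxn1, which repairs peroxiredoxins, rose to 89.9 and 90.2 CPM in imCM-AF from 42.4 and 46.1 CPM (log2 difference 1.02 ± 0.10, edgeR adjusted p 9.39e-07). Gpx7, a peroxidase of the endoplasmic reticulum, fell to 38.3 and 30.2 CPM in imCM-AF from 62.8 and 66.5 CPM (log2 difference -0.92 ± 0.11, edgeR adjusted p 1.63e-05). Of 6 tested genes of conjugate export, 1 was called, beside 6.15% of all tested genes called higher. This gene, Abcc4, a transporter of organic anions, rose to 29.4 and 26.2 CPM in imCM-AF from 11.5 and 12.1 CPM (log2 difference 1.23 ± 0.13, edgeR adjusted p 4.89e-06).

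The list of the Nrf2 axis and xenobiotic oxidation held the most called genes, 7 higher and 2 lower of 23 tested. Of all tested genes, 6.15% were called higher and 4.99% lower. Aldh1a1, a retinaldehyde dehydrogenase that also clears lipid aldehydes, rose to 61.5 and 61.2 CPM in imCM-AF from 16.2 and 16.1 CPM (log2 difference 1.93 ± 0.11, edgeR adjusted p 4.01e-09). Nqo1, a quinone reductase and a classic Nrf2 target, rose to 103.5 and 91.8 CPM in imCM-AF from 30.5 and 32.8 CPM (log2 difference 1.62 ± 0.10, edgeR adjusted p 1.76e-08). Aox1, an aldehyde oxidase, rose to 21.5 and 24.3 CPM in imCM-AF from 10.1 and 8.67 CPM (log2 difference 1.30 ± 0.15, edgeR adjusted p 8.84e-06). Cyp1a1, an enzyme induced through the aryl hydrocarbon receptor and below the level asked by the naming rule, had the widest difference of the list, at 0.669 and 0.661 CPM against 6.30 and 3.61 CPM in imCM-AF (log2 difference 2.87 ± 0.40), and was picked after its values were seen. It passed the filter on low values only through the imCM-AF libraries, where it was high, so no p-value is given for it. For these 4 genes both imCM-AF libraries lay above both imCM-NF libraries, as for 32.1% of all tested genes. Since they were named for their higher values, this adds nothing to their calls and is no likeness to Gsta3 and Gsta4.

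**Figure D2:**
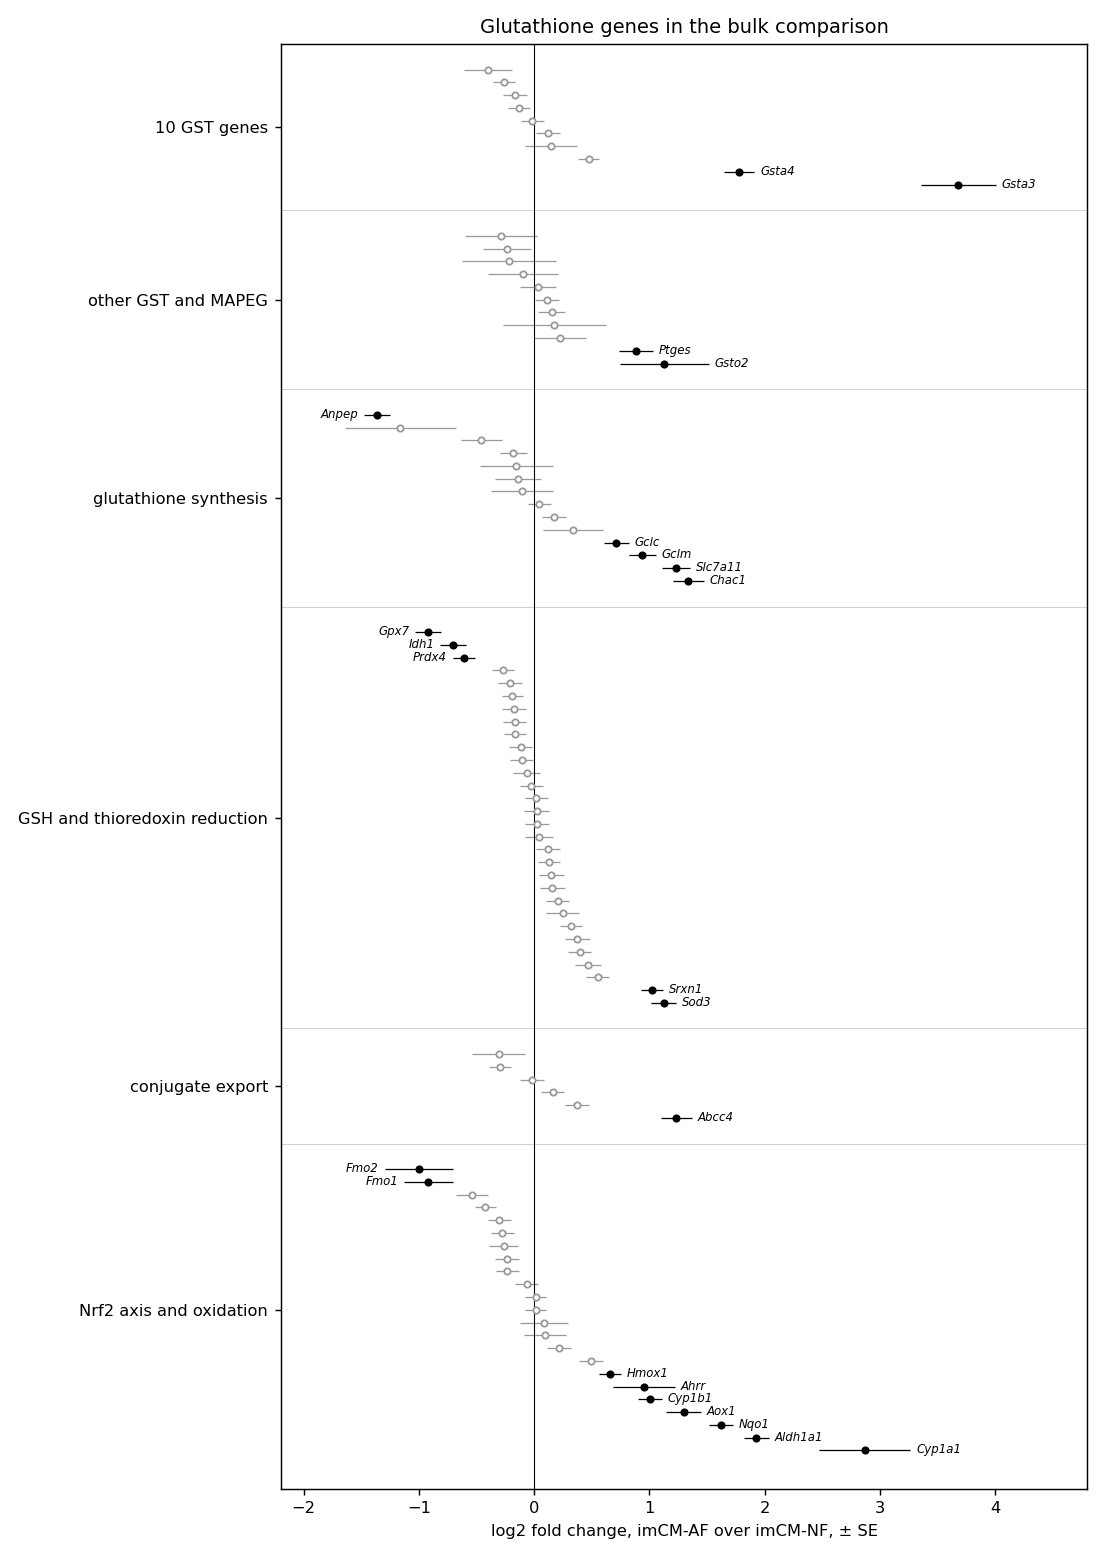
Log2 fold change (imCM-AF over imCM-NF) with its standard error for the 10 GST genes and for 84 tested genes of 5 glutathione lists. Filled and labelled points are genes past the thresholds for all genes, and grey open points are the other tested genes. Gsta3 at 3.68 and Gsta4 at 1.78 stand at the right of the 10, and 16 genes of the other lists are called higher and 6 lower.

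Promoters of the members were searched for the core of the antioxidant response element, TGACNNNGC on either strand, in the 250 bases before and 50 bases after each RefSeq start site (GRCm38). Of 11 promoters of 9 members, 3 held a match, while 12.4% of all 32851 promoters did. Gsta4 was not matched to a promoter. The windows are shown because they lie at members whose levels are described here, with the matched letters in capitals, the Mgst1 match being on the reverse strand.
Gsta3, chr1:21240454-21240483, plus strand: aactcaggcaTGACATTGCatttttcttct
Gstm5, chr3:107895802-107895831, plus strand: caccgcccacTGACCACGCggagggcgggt
Mgst1, chr6:138140461-138140490, plus strand: gcggggcttgGCACGGTCAggaggcggggt
These began 121, 42 and 56 bases before the start site. Of the 3 genes, Gsta3 was higher in both imCM-AF libraries, and Gstm5 and Mgst1 were not. The core of the xenobiotic response element, GCGTG, is bound by the aryl hydrocarbon receptor. It occurred on either strand in 5 of the 11 promoters (both of Gstm1 and those of Gstm5, Gstp1 and Mgst3), beside 32.4% of all promoters. The 2 Gstm1 promoters overlap and hold the same matched site, and counted by gene 35.2% of all genes had a match. In Gstm5, 1 of the 2 matches overlaps the match shown. A match of letters does not show a site in use.

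The single-cell files describe which wells held GST transcripts. Each well carries a Type value, and these are read as written, since no label explains them: AFNCM, NFNCM and NCM0 in the cardiomyocytes library, and AF, NF, AF0 and NF0 in the fibroblasts library, each followed by a number that makes 2 or 3 Type values per name. AF and NF are also the names of adult and neonatal fibroblasts in the bulk titles. Levels are UMI counts-per-million (UMI CPM: the UMIs of a gene over all non-mitochondrial UMIs of the wells), averaged over the Type values of a name. With 1 library per kind of cell there is no replicate, so no test was made, and intervals are exact Poisson or exact binomial 95% intervals that cover counting error only. Of 16 Type values, 2372 wells with at least 500 genes were kept, with median depths of 14064 to 70549 UMIs per well.

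The labels were checked against markers. In Type values of the cardiomyocytes library the 15 cardiomyocyte markers summed to 42426 to 58822 UMI CPM and the 14 fibroblast markers to 2345 to 5954, so transcripts of the fibroblast list were present in the sorted wells. Fibroblast markers were at 5352 to 5954 in AFNCM and 3534 to 5014 in NFNCM. Endothelial markers were at 430 to 591 and 51.0 to 217, while cardiomyocyte and macrophage markers overlapped between these names. Markers of smooth muscle and pericytes were at 1731 to 2108 and 1548 to 1722, and epicardial markers at 45.3 to 91.1 and 17.9 to 29.0. In bulk, the fibroblast, endothelial and smooth muscle sums were instead lower in imCM-AF, and the epicardial sums overlapped. The part of these differences in the GST values was not tested. In the fibroblasts library the fibroblast markers summed to 11648 to 17779. Cardiomyocyte markers reached only 127 to 1074 UMI CPM in AF and 189 to 433 in AF0, but 3955 to 4380 in NF and 4785 to 5775 in NF0. Endothelial markers were at 643 to 763 in AF0 and 157 to 180 in NF0, and epicardial markers at 363 to 385 and 24.3 to 41.8. Markers of smooth muscle and pericytes were lower in AF0, at 2923 to 3420 against 3866 to 4450. Macrophage markers were lower there too, at 46.1 to 125 against 371 to 1026. The 5 negative control wells of the cardiomyocytes library held no UMI of any member, and those of the fibroblasts library held 4 of Mgst1 and 1 of Gstm5. No doublet caller was run, and 269 of the well barcodes occur in both libraries, as chip barcodes come from a common set.

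Gsta3 transcripts were found mainly in wells of the AF names. The level was 8.56, 6.07 and 13.1 UMI CPM in AFNCM and 0.00, 1.56 and 3.77 in NFNCM, so that each AFNCM value was above each NFNCM value. Over all wells of a name this was 9.43 (95% interval 8.09 to 10.9) in AFNCM and 1.91 (1.26 to 2.77) in NFNCM. A UMI was seen in 0 of 265 NCM0 wells, which allows a share of wells with a UMI of up to 1.13% (3 counts, and no limit on the share of cells that express the gene), and the exact interval of the level reached up to 0.535. In the fibroblasts library the level was 15.9 and 8.87 in AF, 0.464 and 2.35 in NF, 6.95 and 8.61 in AF0, and 0.191 and 0.667 in NF0.

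The Gsta3 reads came from few wells. In AFNCM 30 of 535 wells (5.61%) held its 175 UMIs, in AF 25 of 245 wells (10.2%) held 165 UMIs, and in AF0 18 of 193 wells (9.33%) held 99 UMIs. In NFNCM, NF and NF0 between 0.870% and 1.54% of wells held a UMI. The 3 highest wells held 32.6% of the UMIs in AFNCM and 50.3% in AF, so single wells weigh heavily. After each well was thinned to 5000 UMIs the shares were 2.84% in AFNCM, 3.85% in AF and 2.08% in AF0, and 0.480% in NFNCM, with 0 in NF and NF0.

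Gsta4 showed another pattern across the cardiomyocyte wells. Its level was 56.2, 44.9 and 27.4 UMI CPM in AFNCM, 17.2, 16.7 and 42.0 in NFNCM, and 54.9 and 42.8 in NCM0, and AFNCM and NFNCM overlapped. NCM0 wells thus had levels of the order of AFNCM, and each NCM0 value was above each NFNCM value. Among fibroblasts the difference between names was wide, with 36.7 and 26.0 in AF and 3.48 and 6.76 in NF, a mean 6.12 times as high in AF. In AF0 the level was 17.1 and 14.9, and in NF0 it was 1.91 and 6.34. Few wells held these UMIs, with 423 in 30 wells of AF and 38 in 7 wells of NF. The 3 highest wells held 33.3% of the UMIs in AF and 81.6% in NF. In the cardiomyocytes library, 1 well held 102 of 373 UMIs in NFNCM, and 1 held 104 of 777 in AFNCM. As a mean over wells, the highest NFNCM value, that of NFNCM3, was 29.6 in place of 42.0, and AFNCM1 was 29.4 in place of 56.2.

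Mgst1 was clearly higher in the AF names of the single cells, whereas in bulk both imCM-AF libraries lay slightly below both imCM-NF libraries. It was at 294.6, 294.5 and 368.7 UMI CPM in AFNCM and at 154.9, 135.3 and 140.1 in NFNCM, a ratio of means of 2.23. In AF it reached 533.0 and 505.6, in NF 160.1 and 137.8, in AF0 262.6 and 200.3, and in NF0 75.8 and 113.4. The ratio of means was 3.49 for AF over NF and 2.45 for AF0 over NF0, and the bulk log2 fold change was -0.13 ± 0.10. Wells with a UMI were 62.6% in AFNCM and 39.8% in NFNCM, and 50.4% and 25.9% after thinning.

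Gstm1 and Mgst3 went the other way between the cardiomyocyte names. Gstm1 was at 75.3, 71.3 and 96.1 UMI CPM in AFNCM and at 146.8, 103.6 and 112.8 in NFNCM, with 133.3 and 129.6 in NCM0. This order was opposite to that of the bulk libraries, where Gstm1 was higher in imCM-AF. Mgst3 was at 178.7, 143.3 and 168.8 in AFNCM, at 225.5, 280.1 and 332.0 in NFNCM, and at 249.0 and 269.0 in NCM0. Its level in the fibroblasts library was far lower, between 14.4 and 71.3 over all Type values, the lowest values being those of AF0 and the highest those of NF0.

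**Figure D3:**
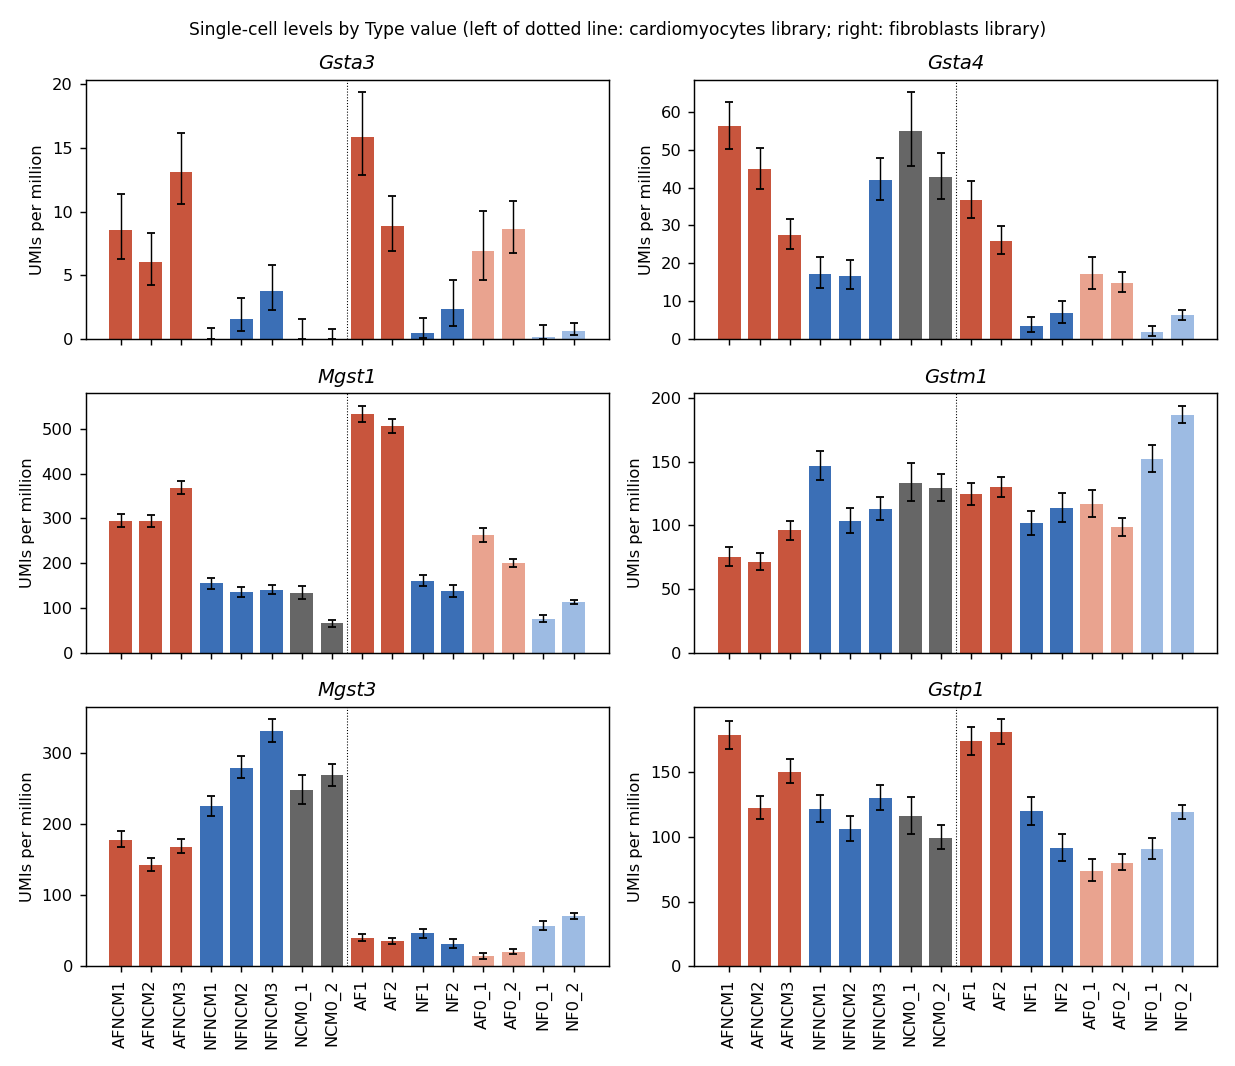
UMI CPM of Gsta3, Gsta4, Mgst1, Gstm1, Mgst3 and Gstp1 in each of the 16 Type values, with exact Poisson 95% intervals for counting error. Red and pale red bars are names that begin with AF, blue and pale blue bars those that begin with NF, and grey bars NCM0. Gsta3 and Mgst1 are higher in every AF-named value than in the NF-named values of the same kind, and Mgst3 is highest left of the dotted line, in the cardiomyocytes library.

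Of the other members, Gstp1 had a mean of 150.2 UMI CPM in AFNCM, 119.3 in NFNCM and 107.4 in NCM0, with AFNCM and NFNCM overlapping. Among fibroblasts Gstp1 was at 173.5 and 180.7 in AF against 119.5 and 91.4 in NF, but at 73.7 and 80.1 in AF0 against 90.8 and 118.8 in NF0, so the order of the AF and NF names turned. Reads of Gstp1 and Gstp2 cannot be told apart in 51.0% of 50-base windows. Gstm2 averaged 92.6 in AFNCM and 100.4 in NFNCM, and Gstm5 averaged 145.8 and 132.2, both with overlapping Type values. Gstt1 (means of 11.9 in AFNCM and 7.02 in NFNCM) and Gstk1 (7.18 and 5.003) overlapped as well and were sparse, with a UMI in at most 11.0% of AFNCM wells. Gstk1 was lower in NCM0, at 1.29 and 1.75, than in any AFNCM or NFNCM value, on 7 wells with a UMI in NCM0.

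Over the 10 members, the Type values of AFNCM and NFNCM did not overlap for 2 higher members (Gsta3 and Mgst1) and 2 lower members (Gstm1 and Mgst3), beside 13.0% and 5.53% of 14633 genes with a mean of at least 1 UMI CPM. For AF against NF, 6 members were higher without overlap (Gsta3, Gsta4, Gstm1, Gstp1, Gstt1 and Mgst1) and none lower, beside 27.1% and 16.5% of genes. For AF0 against NF0, 3 were higher (Gsta3, Gsta4 and Mgst1) and 3 lower (Gstm1, Gstp1 and Mgst3), beside 30.9% and 23.7%. AF exceeded AF0 without overlap for 7 members and was lower for none, beside 26.4% and 30.1%, and NF exceeded NF0 for 2 and was lower for 2, beside 14.3% and 26.4%. Against NCM0, AFNCM was higher for 4 members and lower for 2 (21.7% and 13.9% of genes), and NFNCM was higher for 3 and lower for 1 (12.7% and 14.1%). These comparisons share wells: AF, NF, AF0, NF0, AFNCM, NFNCM and NCM0 each serve in 2 of them. Gsta3 and Mgst1 were higher without overlap in each of the first 3 comparisons.

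Since markers of both cell types were detected in each library, wells were also split by their markers, a split chosen after the data had been seen. Whether the second marker list comes from other cells in a well, from free RNA or from the sorted cells themselves was not tested. Wells were called cardiomyocyte-marker wells where cardiomyocyte markers made up over 0.9 of the UMIs of both marker lists, fibroblast-marker wells where they made up under 0.1, and mixed-marker wells otherwise. In AFNCM 271 of 535 wells were cardiomyocyte-marker and 257 mixed-marker wells, and in NFNCM 369 and 159 of 530. Of the AFNCM wells 120 lay within 0.05 of the upper limit, and 101 of 259 NF and 173 of 345 NF0 wells lay within 0.05 of the lower limit, so these ranges are not cell types. Mixed-marker wells made up 41.3% of NF and 45.8% of NF0 wells but 6.12% of AF and 1.55% of AF0 wells, so the fibroblast-marker wells are unlike subsets of these names.

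Gsta3 was low in the cardiomyocyte-marker wells. It was at 4.21 UMI CPM in AFNCM (41 UMIs) and 0.342 in NFNCM (3 UMIs), and at 15.8 and 4.54 in the mixed-marker wells of the same names. Within the AFNCM cardiomyocyte-marker wells the Type values were unequal, at 0.636, 0.652 and 10.5, so that 1 of 3 Type values held 37 of the 41 UMIs, and the lower pair did not stand apart from the 0.650 of NFNCM2. Fibroblast-marker wells had 11.9 in AF (160 UMIs) and 0.474 in NF (2 UMIs), and 8.19 in AF0 (99 UMIs) and 0.383 in NF0 (4 UMIs).

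Gsta4 was found in both ranges, at 44.8 UMI CPM in AFNCM, 25.2 in NFNCM and 57.6 in NCM0 in cardiomyocyte-marker wells, and at 40.0 in AFNCM and 28.7 in NFNCM in mixed-marker wells. In cardiomyocyte-marker wells the AFNCM values (37.2, 62.9 and 35.7) were all above the NFNCM values (31.1, 22.8 and 23.4), unlike in all wells. In fibroblast-marker wells it was at 29.1 in AF and 0.710 in NF, the latter on 3 UMIs, and mixed-marker wells of NF were at 10.7. Mgst1 was at 216.0 in AFNCM and 82.6 in NFNCM in cardiomyocyte-marker wells, at 430.1 and 244.8 in mixed-marker wells, and at 518.3 in AF and 146.3 in NF in fibroblast-marker wells. In the cardiomyocytes library Mgst3 was at 254.5 in AFNCM and 382.2 in NFNCM in cardiomyocyte-marker wells against 64.6 and 123.6 in mixed-marker wells. Gstm1 was at 75.4 and 81.0 in cardiomyocyte-marker wells of AFNCM and NFNCM, close to each other, and at 88.9 and 184.8 in mixed-marker wells. With fibroblast-marker wells only, Mgst3 was at 33.2 in AF and 32.2 in NF and still at 19.0 in AF0 and 63.5 in NF0. Mixed-marker wells were close to these, at 28.3 in NF and 64.6 in NF0. In cardiomyocyte-marker wells 3 members (Gsta4, Gstp1 and Mgst1) were higher in AFNCM than in NFNCM without overlap and 1 (Mgst3) lower, beside 13.0% and 5.32% of genes. In fibroblast-marker wells 8 members were higher in AF than in NF and 0 lower, beside 29.2% and 14.0%, and 6 were higher in AF0 than in NF0 and 2 (Gstm1 and Mgst3) lower, beside 30.6% and 21.3%. Of the 8, Gstm1, Gstm2, Gstp1 and Mgst1 had 308 to 618 UMIs in NF. Gsta3, Gsta4, Gstt1 and Gstk1 had only 1 to 8 there, so their places in this count are weak. The nearest values of Gstk1 were 3.23 in AF1 and 2.92 in NF2. In NF0, Gsta3 and Gstk1 of the 6 had 4 and 3 UMIs.

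**Figure D4:**
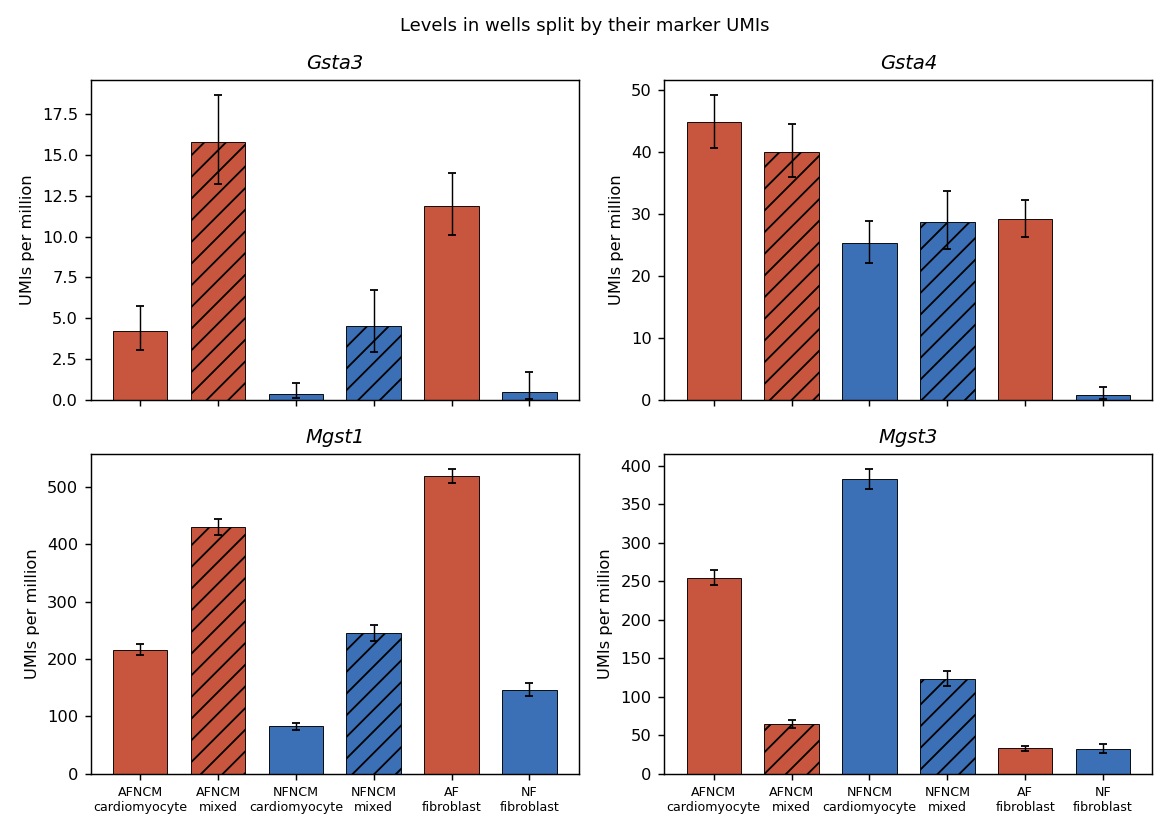
UMI CPM of Gsta3, Gsta4, Mgst1 and Mgst3 in wells split by marker UMIs, with exact Poisson 95% intervals. Plain bars are cardiomyocyte-marker wells of AFNCM and NFNCM and fibroblast-marker wells of AF and NF, and hatched bars are mixed-marker wells. Gsta3 and Mgst1 are higher in mixed-marker than in cardiomyocyte-marker wells, and Mgst3 is lower there.

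To see which genes varied alongside the members, each gene with a mean of at least 20 UMI CPM (6028 genes) was correlated over the 16 Type values with Gsta3, Gstm1 and Mgst1, on log2(UMI CPM + 10). These points share libraries, depth and cell sort, so the values are descriptions. The genes most like Gsta3 were Cxcl5, a neutrophil chemokine (Pearson r 0.94), Il6, an inflammatory cytokine (0.92), and Dcn, a matrix proteoglycan of fibroblasts (0.91). Cxcl5 was at 2007 to 2883 UMI CPM in AF and at 60.1 to 135.4 in NF. The genes most like Mgst1 were Tmem176b (0.94), Cxcl5 (0.93) and Serpina3n, a serine protease inhibitor (0.92). For Gstm1 the likeness was lower, with an Ensembl gene for which no symbol was matched at 0.88, Col11a1 at 0.73 and Fgfr1op2 at 0.73. Among the members, Gsta3 and Mgst1 were most alike (0.89) and Gstm2 and Mgst3 least alike (-0.78).

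The called genes of the glutathione lists were looked up in the single cells as well. Sod3 was at a mean of 25.5 UMI CPM in AFNCM and 0.895 in NFNCM, at 39.3 in AF and 1.03 in NF, and at 102.1 in AF0 and 1.496 in NF0, with no overlap in any of the 3 comparisons. Ptges was at 11.9 in AFNCM and 0.527 in NFNCM, and Slc7a11 at 15.1 and 4.82, both without overlap. Nqo1 was at 26.2 and 20.1 in these names and overlapped, as did Aldh1a1 at 5.73 and 10.4. Cyp1a1 overlapped too, at very low means of 0.059 in AFNCM and 0.216 in NFNCM. It overlapped between AF and NF as well, and was higher in AF0 (1.17) than in NF0 (0.258). Gpx7, lower in the imCM-AF bulk libraries, was at 83.3 in AFNCM and 34.5 in NFNCM. Of the 22 genes called in bulk, 4 (Cyp1b1, Ptges, Slc7a11 and Sod3) had AFNCM and NFNCM values apart in the bulk direction, 4 (Ahrr, Fmo1, Gpx7 and Prdx4) in the opposite direction, and 14 overlapped. For AF against NF 6 were apart in the bulk direction, 6 in the opposite one and 10 overlapped, and for AF0 against NF0 these counts were 12, 1 and 9. Of the 97 genes of the 5 lists with a column in these files, 16 were higher and 5 lower in AFNCM than in NFNCM without overlap, beside 13.0% and 5.53% of genes. For AF against NF the counts were 38 and 17, beside 27.1% and 16.5%, and for AF0 against NF0 41 and 14, beside 30.9% and 23.7%, with the shares over genes of a mean of at least 1 UMI CPM and the lists without that limit.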

How the data were processed

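The authors deposited raw counts per gene for 4 bulk libraries and UMI counts per gene and well for 2 single-cell libraries, with a report of each well. Per the study's methods, bulk reads were aligned to mm10 with subread, unique reads were kept, with assignment to RefSeq genes by featureCounts. Single-cell reads passed barcode, UMI, trimming and contaminant filters, STAR (2.5.2b in the submitters' processing notes, with Subread 1.4.6-p1) did the alignment to mm10, with featureCounts on Ensembl genes. Unplaced or multiply placed reads do not count, which lowers values of genes with near-identical copies.

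Genes with CPM over 1 in at least 2 bulk libraries were kept (14041 of 27179), since the table gives no lengths for the RPKM filter of the study. Total counts were 9278909 and 12088577 (imCM-NF) and 10766124 and 11790263 (imCM-AF). edgeR 4.0.16 in R 4.3.3 compared the groups by TMM scaling and the quasi-likelihood test, Benjamini-Hochberg adjusted over all tested genes and with calls made at an adjusted p below 0.05 and a log2 fold change beyond 0.58 either way. On simulated data for this comparison (13882 genes) it recovered 193 of 200 changed genes with 1 false call. The changed genes were set far beyond the fold threshold, and all genes shared a common dispersion. Recovery near the threshold, or with unequal dispersions, was not tested. Wells were kept with at least 500 genes and over 50% of screened pairs aligned, and spike-in and mitochondrial columns were left out. The Type column of the well report is text copied as written. Alternatives were other scalings, tests, filters and thresholds, libraries left out, a replicate block, and other choices of wells. Sequences and coordinates came from GENCODE M21 and RefSeq (GRCm38, the assembly of mm10).

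The members, lists and tests were chosen with earlier results of these data known. Named were all 10 members, each called gene of the other GST and MAPEG genes, the 3 called genes of largest change with a mean CPM of at least 5 in each other list, and the 3 genes most like Gsta3, Gstm1 and Mgst1 over Type values. The remaining names were chosen after values were seen.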

Additional observations from a re-analysis of the deposited data

How the results depend on the processing

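The bulk values rest on 2 libraries per group, and the single-cell values on 1 library per kind of cell. The count of called genes (1564) and of called genes of the glutathione lists (22) depended on the fold threshold, with 565 and 13 at a log2 threshold of 1 and 3789 and 35 with the adjusted p alone. Leaving out 1 library gave 879 to 1929 called genes and 16 to 22 in the lists, the lowest without imCM-NF replicate 2, whereas 988 genes were called when imCM-AF replicate 2 was left out. With the replicate block 1430 genes were called, 22 of them in the lists. Replicate numbers did not pair the libraries (correlation of deviations -0.13 over genes), and a crossed pairing, chosen after this was seen, gave 1668 and 22.

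Gsta4 kept its direction under every alternative tried, and its log2 fold change ran from 1.62 to 1.93 over libraries left out. Gsta3 has no value without either imCM-AF library or with CPM over 1 asked of all 4 libraries, because it then missed the filter, and was 3.62 to 3.73 without an imCM-NF library. The log2 fold change of Gstp1 turned to 0.026 with library totals and 0.017 with upper quartile scaling, and ran from -0.10 to 0.085 over libraries left out. Over the same libraries that of Mgst3 ran from -0.017 (imCM-NF replicate 2 left out) to 0.27, and that of Gstk1 from -0.14 (imCM-AF replicate 2 left out) to 0.39. The cause was not tested.

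With fibroblast-marker wells only, 6 members were higher in AF0 than in NF0 without overlap (30.6% of genes) and 2 lower (21.3%), against 3 and 3 with all wells (30.9% and 23.7%). With the mean over wells in place of summed UMIs, the difference of Gstk1 between AF0 and NF0 turned to -1.54 UMI CPM. Of 150 single-cell differences recomputed, 127 stayed within the spread of the Type values and 23 moved beyond it. Of 70 shares of wells recomputed by thinning or otherwise, 66 moved and 4 stayed the same.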
